A study of Mus musculus with 15 samples.

Results

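The comparison was between mouse stomach tumors of the cardia, the part where the stomach meets the esophagus, and tumors of the antrum and corpus, the parts toward and above the outlet. The members were chosen by the site in the sample labels: 6 cardia tumors, 3 from the greater and 3 from the lesser curvature, against 3 antrum and 3 corpus tumors, so 12 of the 15 bulk RNA-seq samples. The remaining 3 samples, of normal stomach, entered the model and are given as background. All groups, the normals included, were C57BL/6 mice with Pou2f3-CreERT, both Rb1fl/fl and Trp53fl/fl, and the inducible allele LSL-MycT58A, were 7 to 8 weeks old by label, and had received tamoxifen at 50 mg/kg on 1 day, with tissue profiled 5 weeks later. The Cre recombinase is driven by Pou2f3, the master regulator of tuft cells, and removes the tumor suppressors Rb1 and Trp53 while switching on a stabilized Myc. The labels place the cardia tumors at its boundary and call replicates biological and name no animals. The p-values therefore speak for the spread among these samples alone, and whether any of the tumors shared an animal is not known.

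The mouse stomach is patterned along its length. Its upper part, the forestomach, is lined by a stratified squamous epithelium that rests on basal cells marked by Trp63 and Krt5 and meets the glandular stomach at the cardia. The corpus carries acid-secreting parietal cells and pepsinogen-secreting chief cells, and the antrum carries gastrin cells under the homeodomain factors Pdx1 and Nkx6-3. Transcription factors with regional expression, such as the Pax, Irx and Hox families, lay down positional identity in the embryo and are often kept in adult cells.

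Libraries held 7957165 counts (lesser curvature 2) to 21564972 counts (greater curvature 2), so 1 count was worth 0.0478 to 0.112 CPM in the tumors, where CPM is counts per 1000000 of the TMM-scaled library. Of 36144 genes, 16224 passed the filter on low counts. The first principal component of the tumors, with 50.6% of the variance, did not separate the sites: greater curvature 2 and corpus 1 lay at one end and lesser curvature 1 and antrum 1 at the other. The targeted genes did not differ at the test's threshold. Rb1 had medians of 39.6 CPM in cardia and 34.3 in antrum and corpus tumors (log2 difference 0.14, SE 0.17), Trp53 had 40.7 and 28.9 (0.25, SE 0.24), and Myc had 304 and 197 (0.58, SE 0.43). Gene totals do not separate floxed exons from the rest, and it is not known here how transgene reads were assigned to Myc, so these values do not check recombination.

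No gene passed edgeR's quasi-likelihood test at an adjusted p under 0.05 in the comparison of cardia with antrum and corpus tumors, which weighted the 4 site means equally (0 of 16224, 0%). At an unadjusted p under 0.05 there were 815 genes (5.02%), 442 higher in cardia tumors (2.72%) and 373 lower (2.30%), against the 5% that a threshold of 0.05 passes when nothing differs. DESeq2 on the same contrast called 87 of 18591 genes (0.468%), 66 higher (0.355%) and 21 lower (0.113%), and limma on the deposited TPM values called 1 of 15395 (0.00650%), the cornified-envelope gene Sprr2h. Of the 87, 63 had an unadjusted edgeR p under 0.05, and 35 had a tumor site with all 3 libraries at 0 counts, while 52 did not. The genes described below were picked by small p or by list, so none of their edgeR differences passed adjustment, and each is given as a difference with its error. Each list count below is to be read against the shares over all genes tested, 2.72% higher and 2.30% lower. Within the cardia, greater against lesser curvature gave 0 edgeR calls and 889 genes at unadjusted p (5.48%; 2.92% higher and 2.56% lower in the greater curvature), with 83 DESeq2 calls (0.470%; 0.164% higher and 0.305% lower) and 5 by limma (0.0325%). Same-numbered tumors of the 2 curvatures deviated together in these data. The labels do not say what a replicate number shares, so its use as a block was chosen from these same values. With that block, fitted to all 15 samples with the same replicate effects in every group, edgeR called 1 gene. It was Maob, the enzyme monoamine oxidase B, named after its values were seen. Maob was at 2.79, 6.16 and 3.46 CPM in greater and 21.3, 28.3 and 28.9 CPM in lesser curvature tumors, without overlap (log2 difference -2.73, edgeR adjusted p = 0.0303 with the block and 0.300 without). Antrum against corpus gave 0 edgeR calls and 614 genes at unadjusted p (3.78%; 2.33% higher and 1.45% lower in the antrum), with 77 DESeq2 calls (0.436%; 0.209% higher and 0.226% lower) and 0 by limma.

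**Figure D1:**
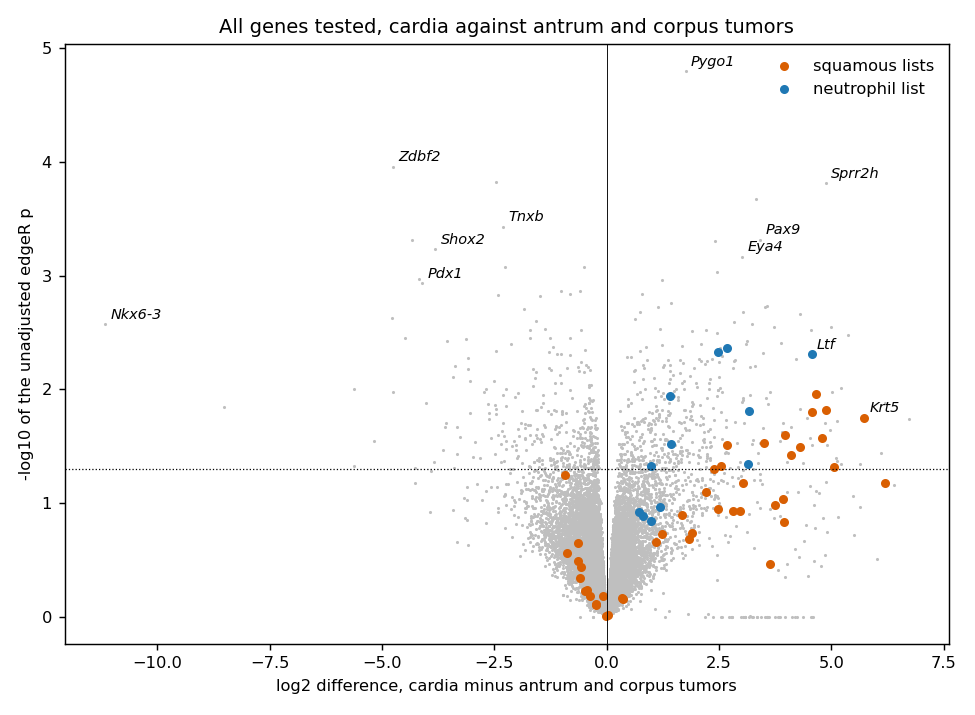
Each point is 1 of the 16224 tested genes, with the log2 difference of cardia minus antrum and corpus tumors across and the negative log10 of the unadjusted edgeR p up; the dotted line marks an unadjusted p of 0.05 colored points are members of the squamous (orange) and neutrophil (blue) lists. The highest point is Pygo1, at a log2 difference of 1.76 and an adjusted p of 0.257.

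The gene with the smallest p, named after its values were seen because its mean was under the 10 CPM that the naming rule required, was Pygo1 (chromosome 9, 72925645 to 72952181, GRCm38), a nuclear cofactor of the Wnt pathway. It was at 2.996, 4.89 and 6.76 CPM in greater curvature tumors and at 6.09, 3.36 and 4.01 CPM in lesser curvature tumors. It was at 1.23, 1.46 and 1.27 CPM in antrum tumors, 1.66, 1.46 and 1.24 CPM in corpus tumors, and 2.79, 3.49 and 2.75 CPM in normals. All 6 cardia tumors thus lay above all 6 others, by a log2 difference of 1.76 (SE 0.26, edgeR adjusted p = 0.257). DESeq2 called it (adjusted p = 1.85e-07), and the normals lay above the antrum and corpus tumors and overlapped the lowest cardia tumors.

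Complete separation of the 6 against 6 tumors was seen for 22 of the 16224 genes (0.136%), 11 higher in cardia tumors (0.0678%) and 11 lower (0.0678%). Among so many genes some separate in this way when nothing differs between sites. Separation alone therefore does not set a gene apart. The genes with all cardia tumors higher also included Aknad1, BC100530, Bst1, Nr1d2, Pald1, Rpl10-ps6, Tmem236, Trim39 and Zfp185. Those with all cardia tumors lower were A930004D18Rik, Capn10, Galr1, Grpel1, Immt, Mpst, Oprd1, Pdx1, Rph3al, Tcp11 and Ube2v1. Tmem236 was at 0.419 to 6.16 CPM in cardia tumors and 0.0615 to 0.175 CPM in the others, a log2 difference of 3.32 (SE 0.64). DESeq2 called it (adjusted p = 0.000962), and it is low in count.

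Regional transcription factors were found on both sides of the comparison. Promoter sequences are printed for 4 of them, Pax9 and Hmx3 from the side higher in cardia tumors and Pdx1 and Shox2 from the side lower, as the 250 bases before the annotated start, written 5′ to 3′ on the gene's strand, from RefSeq on GRCm38.p6. Pax9 lies at chr12:56695221-56695470 (plus strand), Hmx3 at chr7:131542713-131542962 (plus), Pdx1 at chr5:147269847-147270096 (plus) and Shox2 at chr3:66981772-66982021 (minus). RefSeq and GENCODE place the starts differently: the Pax9, Hmx3 and Pdx1 windows lie inside or overlap the GENCODE gene spans printed for these genes, the first of them well inside, and the Shox2 window lies just outside. Capitals mark a match on either strand to 1 of 4 motifs. The first, TATAAA, is the core of the TATA box. The next, CACGTG, is an E-box bound by Myc and its partners. Another, AGATAA, is a core bound by GATA factors. The last, ACAAAG, is a core bound by Sox and Tcf factors.
Pax9: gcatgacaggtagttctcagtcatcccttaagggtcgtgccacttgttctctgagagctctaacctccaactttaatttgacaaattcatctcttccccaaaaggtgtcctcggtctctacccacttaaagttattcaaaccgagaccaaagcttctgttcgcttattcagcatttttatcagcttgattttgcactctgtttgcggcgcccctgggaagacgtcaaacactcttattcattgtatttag
Hmx3: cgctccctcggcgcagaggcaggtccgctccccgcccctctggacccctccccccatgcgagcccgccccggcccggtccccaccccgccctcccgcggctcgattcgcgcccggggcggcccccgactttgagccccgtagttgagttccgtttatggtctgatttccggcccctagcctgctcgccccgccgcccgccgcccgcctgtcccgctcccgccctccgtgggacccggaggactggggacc
Pdx1: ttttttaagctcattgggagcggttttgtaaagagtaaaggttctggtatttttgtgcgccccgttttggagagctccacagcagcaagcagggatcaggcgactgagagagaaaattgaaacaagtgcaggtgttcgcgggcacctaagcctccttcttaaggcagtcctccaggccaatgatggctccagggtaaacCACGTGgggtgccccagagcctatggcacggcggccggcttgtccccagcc
Shox2: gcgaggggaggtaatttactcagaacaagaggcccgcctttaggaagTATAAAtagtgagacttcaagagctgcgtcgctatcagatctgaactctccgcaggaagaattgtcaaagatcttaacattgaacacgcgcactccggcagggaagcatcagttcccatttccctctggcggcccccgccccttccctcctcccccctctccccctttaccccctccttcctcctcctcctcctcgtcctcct
The Pdx1 window held 1 CACGTG, at -51 to -46 from the start, and the Shox2 window 1 TATAAA, at -203 to -198, while the Pax9 and Hmx3 windows held no match. Among 32851 RefSeq windows of this length, 12.4% held TATAAA, 6.02% CACGTG, 9.99% AGATAA and 16.5% ACAAAG. GC content was 43.6% for Pax9, 76.8% for Hmx3, 54.8% for Pdx1 and 55.6% for Shox2, against a median of 52.4%, and the windows held 7, 31, 10 and 11 CpG against a median of 6. These matches describe the letters only.

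Pax9 (chromosome 12, 56691767 to 56712822), a paired-box factor of the foregut that marks esophageal and other squamous lineages, was at 1.60, 20.1 and 43.3 CPM in greater curvature tumors and at 8.11, 6.49 and 12.6 CPM in lesser curvature tumors. It was at 0.184, 0.874 and 2.09 CPM in antrum, 1.82, 1.74 and 1.30 CPM in corpus tumors, and 0.220 to 1.07 CPM in normals. In 5 of 6 cardia tumors it was above every other tumor, with greater curvature 1 as the exception. The log2 difference was 3.42 (SE 0.72, edgeR adjusted p = 0.773), and DESeq2 called it (adjusted p = 0.000160).

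Eya4 (chromosome 10), a transcriptional coactivator, had a range of 3.52 to 30.3 CPM with a median of 11.7 in cardia tumors and of 0.474 to 5.89 CPM with a median of 1.48 in the others. Greater curvature 1 and 2 lay within the antrum range. Its log2 difference was 3.02 (SE 0.67, edgeR adjusted p = 0.773), and DESeq2's adjusted p was 0.000475. Nr2f1 (chromosome 13), the nuclear receptor COUP-TFI, was at 1.74 to 25.3 CPM with a median of 10.7 in cardia tumors and at 1.10 to 4.15 CPM with a median of 2.96 in the others. In 5 of 6 cardia tumors it was above all others, though greater curvature 2, at 4.18 CPM, was barely above corpus 2, at 4.15 CPM. Its log2 difference was 2.22 (SE 0.60), which became 1.31 without greater curvature 3.

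Irx2 (chromosome 13) and Irx5 (chromosome 8) are Iroquois homeobox genes from separate clusters. Irx2 was at 34.0, 34.3 and 55.7 CPM in greater curvature, 24.3, 33.6 and 29.2 CPM in lesser curvature, 15.97, 28.2 and 29.7 CPM in corpus, and 5.35, 7.11 and 9.75 CPM in antrum tumors. The lesser curvature and corpus ranges overlapped, and the 3 antrum tumors were the lowest. Its log2 difference was 1.36 (SE 0.40, edgeR adjusted p = 0.773). Irx5 had a median of 25.8 CPM in cardia and 11.6 CPM in the other tumors (log2 difference 1.38, SE 0.62), with corpus 3, at 26.1 CPM, inside the cardia range.

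Hmx3 (chromosome 7, 131542867 to 131544925) and its neighbour Hmx2, homeobox genes best known from the inner ear and hypothalamus, were named after their values were seen. Hmx3 was at 4.13, 6.71 and 3.82 CPM in lesser curvature tumors and at 0.418, 0.764 and 0.314 CPM in greater curvature tumors. It was at 0.0583 to 0.165 CPM in antrum tumors and 0.158, 0.337 and 1.46 CPM in corpus tumors. The higher level was thus mostly that of the lesser curvature, with greater curvature tumors inside the range of corpus tumors. Its log2 difference was 2.45 (SE 0.56, edgeR adjusted p = 0.773), and DESeq2's adjusted p was 0.0103.

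The lower side was led in size by antral genes. Pdx1 (chromosome 5, 147269959 to 147275848), the homeodomain factor of antrum, duodenum and pancreas, was at 0.139, 1.17 and 0.629 CPM in greater curvature tumors and at 0.0983, 1.01 and 0.478 CPM in lesser curvature tumors. It was at 2.34, 22.8 and 18.7 CPM in antrum tumors, 9.96, 8.24 and 2.11 CPM in corpus tumors, and 0.514, 26.3 and 33.6 CPM in normals. The 6 cardia tumors all lay below the 6 others, and normal 1 lay among the cardia values. The log2 difference was -4.11 (SE 0.97, edgeR adjusted p = 0.773), and DESeq2 called it (adjusted p = 0.000605).

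Nkx6-3 (chromosome 8, 23153269 to 23158948), which drives gastrin cells of the antrum, had 0 counts in all 6 cardia tumors. It was at 3.87, 63.7 and 56.8 CPM in antrum tumors, 17.8, 5.22 and 0 CPM in corpus tumors, and 0.220, 55.1 and 119 CPM in normals. Against a floor of 3 counts over the 6 cardia libraries, it was at least 858-fold lower in them, although corpus 3 was also at 0. Its edgeR adjusted p was 0.773 and DESeq2's adjusted p 4.79e-05. It is among the 35 DESeq2 calls with a tumor site at 0 counts. It is also among the 127 tested genes of that kind, whose p-values are unstable. Gast, the hormone gastrin, had 1 count in cardia tumors, in lesser curvature 1, and 1792 in the others, a pooled ratio of 1841 (95% counting interval 330 to 72741, for counting error only). Antrum 2, at 83.2 CPM, and antrum 3, at 17.7 CPM, held most of it, while antrum 1 and corpus 3 were at 0 as well. Of the 7 genes in the antral identity list, these 3 (Pdx1, Nkx6-3 and Gast) were lower at unadjusted p and Cxcr4, a chemokine receptor, was higher, with a median of -1.70.

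Pax6 (chromosome 2), a paired-box factor of endocrine cells and the eye, was at 0.306 to 6.94 CPM with a median of 0.923 in cardia tumors. In antrum tumors it was at 19.4, 62.9 and 144 CPM and in corpus tumors at 0.395, 21.3 and 8.92 CPM. All 3 antrum and 2 of 3 corpus tumors lay above every cardia tumor. Its log2 difference was -4.33 (SE 0.91, edgeR adjusted p = 0.773, DESeq2 adjusted p = 3.47e-05).

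Shox2 (chromosome 3, 66971727 to 66981771), a homeobox gene of limb and heart development, was at 26.8, 7.63 and 23.2 CPM in antrum tumors and 2.69, 3.65 and 3.08 CPM in corpus tumors. It was at 0, 0.102 and 0.367 CPM in greater curvature tumors and 0.688, 3.69 and 1.10 CPM in lesser curvature tumors. The antrum tumors were the highest and the greater curvature tumors the lowest, and lesser curvature 2 lay just above the corpus tumors. The log2 difference was -3.82 (SE 0.83, edgeR adjusted p = 0.773), and DESeq2's adjusted p was 0.000160. Of the 42 tested regional and foregut transcription factors in the list, 5 were higher at unadjusted p, among them Irx2, Irx5, Six4 and Nr2f1, and 4 lower (Gata4, Barx1, Six2 and Isl1). Their median log2 difference was -0.25, against 0.01 over all genes tested. The higher count became 3 without antrum 2, antrum 3, greater curvature 3, lesser curvature 1, corpus 1 or corpus 2. The lower count became 7 without antrum 1, greater curvature 2 or lesser curvature 2, 2 without normal 1 or corpus 2, and 1 without antrum 2, greater curvature 1, greater curvature 3, lesser curvature 1, lesser curvature 3 or corpus 1.

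**Figure D2:**
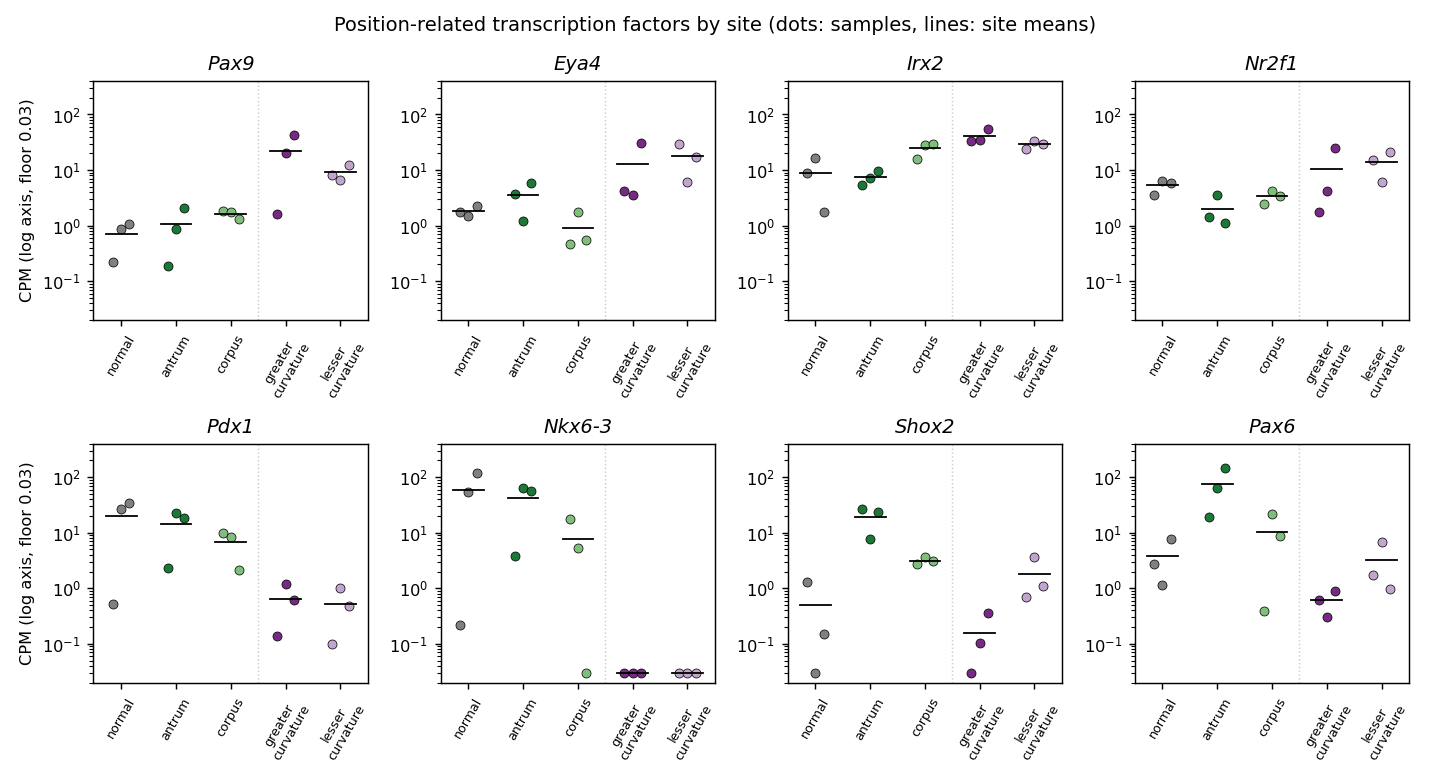
CPM (log axis, values of 0 drawn at 0.03) of 8 transcription factor and coactivator genes in the single samples of each site, with a line at the site mean. Pdx1 is at 0.0983 to 1.17 CPM in the 6 cardia tumors and 2.11 to 22.8 CPM in the 6 others, Nkx6-3 sits at the bottom in all cardia tumors, and Pax9 is highest in greater curvature 3.

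Other genes with the smallest p on the lower side were Zdbf2, Tnxb, Adgrl2, Cybrd1, Arhgap10, Rpp25, Rph3al and Ccdc141. Zdbf2 (chromosome 1, 63273265 to 63314576), a paternally expressed imprinted gene, was at 37.6, 63.5 and 73.8 CPM in antrum, 0.395, 28.04 and 9.57 CPM in corpus, and 0.255 to 5.71 CPM in cardia tumors. Corpus 1 alone fell within the cardia range. Its log2 difference was -4.75 (SE 0.84, edgeR adjusted p = 0.620), with a DESeq2 adjusted p of 2.16e-07.

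Tnxb, the matrix protein tenascin-X, had a median of 5.40 CPM in cardia and 27.5 CPM in the other tumors, and was at 69.9 to 86.4 CPM in normals (log2 difference -2.31, SE 0.47). Cybrd1, an iron-reducing enzyme of the gut surface, was at 2.46 to 12.2 CPM in cardia tumors. In antrum tumors it was at 3.57, 315 and 307 CPM and in corpus tumors at 107, 55.7 and 13.8 CPM, so antrum 1 alone overlapped the cardia (log2 difference -4.19, SE 0.98). Rph3al, an effector of Rab GTPases in hormone secretion, was at 13.0 to 21.7 CPM in cardia tumors and 21.8 to 51.1 CPM in the others, separated by less than the spread within either group. Of 16 tested imprinted genes, 3 were lower at unadjusted p (Zdbf2, Dlk1 and Plagl1) and none higher, with a median of 0.08.

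On the higher side, the remaining genes of the rule were Zbtb20, Stap1, Ccdc9b, Mrc1, Reln, Pth1r and Pcdhgc3, with S100a8 and S100a9 described below. Reln, the secreted guidance protein reelin, was at 1.07 to 41.5 CPM with a median of 11.4 in cardia and 0.487 to 7.38 CPM with a median of 1.32 in the other tumors, and at 4.71 to 14.8 CPM in normals. Stap1, an adaptor of B cell receptor signaling, was at 16.6 CPM in greater curvature 3 and 53.02 and 27.8 CPM in lesser curvature 1 and 3, while the other 3 cardia tumors, at 0.783 to 1.32 CPM, lay within the range of the others. Pth1r, the parathyroid hormone receptor, stood at 53.6 CPM in greater curvature 2 and 1.87 to 8.12 CPM in the other cardia tumors, and its log2 difference of 2.51 became 1.12 without that library. Mrc1, the mannose receptor CD206 of macrophages, was at 12.9 to 22.7 CPM in cardia and 9.46 to 13.6 CPM in the other tumors (log2 difference 0.63, SE 0.16, edgeR adjusted p = 0.773).

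Markers of squamous epithelium were uneven among the cardia tumors. Krt5 (chromosome 15, 101707070 to 101712898), the basal keratin, was at 49.3, 320 and 155 CPM in lesser curvature tumors. In greater curvature tumors it was at 0.0697, 43.5 and 0.314 CPM, so greater curvature 2 alone came near them. In the others it was at 0 to 7.91 CPM, the highest being corpus 2, and in normals at 0.294, 333 and 0 CPM. The log2 difference was 5.74 (SE 2.09, edgeR adjusted p = 0.773) and became 2.67 without greater curvature 2.

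Trp63, the master regulator of squamous basal cells, was at 3.49, 29.1 and 14.2 CPM in lesser curvature tumors and 0.139, 3.77 and 0 CPM in greater curvature tumors. It was at 0 to 0.393 CPM in antrum and corpus tumors and at 0, 42.2 and 0.0765 CPM in normals. The log2 difference was 4.88 (SE 1.73, edgeR adjusted p = 0.773), and 2.76 without greater curvature 2. Normal 2 thus carried both basal markers at levels like those of lesser curvature 2, while the other 2 normals had nearly none.

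Several keratins of the upper squamous layers were, among tumors, highest in the lesser curvature. Krt4 was at 53.3, 102 and 118 CPM there and 1.32, 1.68 and 2.36 CPM in greater curvature tumors, against 0.108 to 2.04 CPM in antrum and corpus tumors and 1231 CPM in normal 2. Krt1, a keratin of cornifying cells, was at 35.6, 778 and 175 CPM in lesser curvature tumors and 0.209 to 0.815 CPM in greater curvature tumors, which lay within the 0 to 1.46 CPM of the other sites, and at 3886 CPM in normal 2. Flg, filaggrin, was at 5.26, 71.5 and 31.0 CPM in lesser curvature tumors, at most 0.157 CPM in any other tumor, and 517 CPM in normal 2. Other members of the list had another order. Ivl, involucrin, was highest in greater curvature 1, at 46.1 CPM, with 0.688 to 9.29 CPM in lesser curvature tumors. Ly6d was highest in greater curvature 2, at 373 CPM, and Sprr1a, Dsp and Jup were highest of the tumors in corpus 1, at 190.0, 621 and 438 CPM. The greater minus lesser curvature log2 difference was -5.66 for Krt4 and -9.59 for Krt1, each with an edgeR adjusted p of 0.780.

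Of 13 tested basal squamous genes, 5 were higher at unadjusted p (Trp63, Krt5, Krt15, Krt17 and Col17a1) with a median of 0.02, and of 31 suprabasal and cornified-envelope genes 7 were higher (Krt1, Krt4, Krt6b, Krt10, Sprr1b, Sprr2d and Calml3) with a median of 2.39. None of either list was lower, and basal genes such as Itga6 and Lamb3, which glandular epithelium also uses, were not among those higher. The basal count of 5 became 0 without greater curvature 2 and 3 without antrum 1, lesser curvature 2 or corpus 3. The suprabasal count of 7 became 1 without antrum 1 or corpus 3, 2 without corpus 1, 3 without antrum 3, greater curvature 2 or lesser curvature 2, 11 without normal 1 or normal 3, and 19 without normal 2. Of the 66 genes that DESeq2 called higher, 31 had over 90% of their cardia CPM in lesser curvature tumors, among them Flg, Sprr3, several Lce1 genes and Klk genes. The summed suprabasal list ran from 585 to 1976 CPM in greater curvature, 817 to 5643 CPM in lesser curvature and 89.0 to 2105 CPM in antrum and corpus tumors. In bulk tissue, more squamous cells and more squamous RNA per cell cannot be told apart, and how much adjacent forestomach each sample held was not tested.

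**Figure D3:**
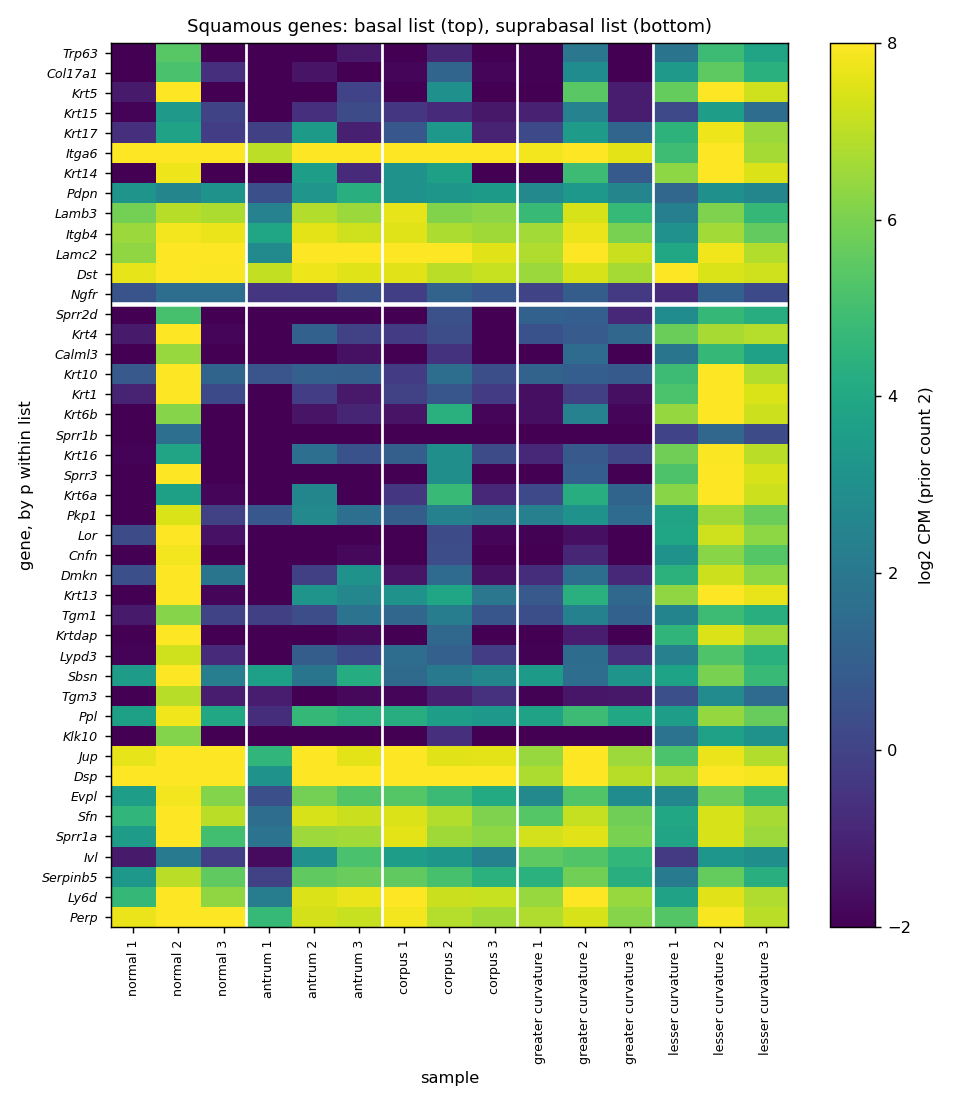
Heatmap of squamous genes (rows, basal layer above suprabasal and cornified envelope) in the 15 samples (columns, by site), colored by log2 CPM. Krt5, Krt4 and Krt1 are bright in the 3 lesser curvature tumors and normal 2, and of the greater curvature tumors only the second, at 43.5 CPM, is bright for Krt5.

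Hox genes, which mark position along the body axis, were mostly at low counts. Of 18 tested, 3 were higher at unadjusted p (Hoxa7, Hoxc4 and Hoxc8), none lower, and the median was 0.38. The count of 3 became 0 without corpus 1, 5 without normal 2, and 1 without antrum 2, antrum 3, greater curvature 2, lesser curvature 2, corpus 2 or corpus 3. The log2 difference of Hoxc8 was 2.98 without greater curvature 2. Hoxc8 was at 0.147, 3.92 and 1.34 CPM in lesser curvature tumors and 0, 0.459 and 0 CPM in greater curvature tumors, and had 1 count in the other 6 tumors, a pooled ratio of 73.0 (95% counting interval 12.7 to 2922). It was at 18.0 CPM in normal 2 and 0 in the other normals. Lesser curvature 2 was the highest tumor and normal 2 the highest normal for Hoxc8 as for Krt5.

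Of the 52 lists, that of neutrophil genes had the largest share of members past the unadjusted threshold: 8 of 12 tested were higher (S100a8, S100a9, Cxcr2, Csf3r, Mmp8, Ngp, Ltf and Stfa2l1), none was lower, and the median was 1.42. S100a8 (chromosome 3, 90668978 to 90670035), which with S100a9 forms calprotectin, was at 10.9, 8.92 and 9.17 CPM in greater curvature and 30.7, 21.9 and 17.1 CPM in lesser curvature tumors. It was at 5.29, 0.233 and 9.97 CPM in antrum and 0.0791, 1.96 and 1.08 CPM in corpus tumors. Antrum 3 was the only other tumor inside the cardia range. The log2 difference was 2.68 (SE 0.76, edgeR adjusted p = 0.773, DESeq2 adjusted p = 0.0280).

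S100a9 had medians of 17.4 CPM in cardia and 2.86 CPM in the other tumors (log2 difference 2.47, SE 0.71). Both calprotectin genes are also made by squamous epithelium. The squamous genes of the greater curvature tumors are given above, with Krt14 at 28.6, Krt13 at 20.5 and Krt6a at 18.6 CPM in greater curvature 2, and their part in the calprotectin values was not tested. Cxcr2, the neutrophil receptor for CXC chemokines, was at 1.25, 5.40 and 2.20 CPM in greater curvature and 2.60, 2.46 and 2.48 CPM in lesser curvature tumors. It was at 0.799, 0.641 and 2.31 CPM in antrum and 0.632, 1.07 and 0.811 CPM in corpus tumors. Here again antrum 3 overlapped the cardia (log2 difference 1.40, SE 0.47, edgeR adjusted p = 0.773).

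Ltf, lactoferrin, which neutrophils and glandular epithelia both make, was at 567 CPM in greater curvature 2 and 148 CPM in lesser curvature 2, with 6.55 to 56.0 CPM in the other cardia tumors and 0.246 to 17.2 CPM in the rest. Its log2 difference of 4.56 (SE 1.33) became 2.31 without greater curvature 2. Ngp and Stfa2l1 were below 5 CPM in every tumor. The summed neutrophil list ran from 55.3 to 659 CPM in cardia tumors and from 14.7 to 57.5 CPM in the others, with antrum 3 the highest of the latter. Ltf alone made up most of the sum in greater curvature 2 (567 of 659 CPM) and lesser curvature 2 (148 of 212 CPM). The count of 8 was 5 without antrum 2, without lesser curvature 1 or without corpus 1, and 3 without greater curvature 2 and corpus 1 together.

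The chemokines that bind CXCR2 were described beside it. Of 8 tested ligands and receptors, 3 were higher at unadjusted p (Cxcl2, Ppbp and Cxcr2) and none lower, with a median of 1.17, and the count was 6 without antrum 3 and 1 without greater curvature 2 and corpus 1 together. Cxcl5 was at 13.8, 89.9 and 18.1 CPM in greater curvature, 7.57, 36.3 and 14.7 CPM in lesser curvature, 0.553, 6.53 and 20.5 CPM in antrum and 5.93, 22.2 and 7.62 CPM in corpus tumors. The groups overlapped (log2 difference 1.42, SE 0.76, edgeR adjusted p = 0.773), and the difference was 0.59 without greater curvature 2 and corpus 1. Il1b, the inflammatory cytokine, had medians of 16.2 CPM in cardia and 6.53 CPM in the other tumors (log2 difference 1.24, SE 0.52). Of 16 macrophage and monocyte genes, 3 were higher (Cd14, Mrc1 and Arg1) with a median of 0.24, and Arg1, arginase 1, was at 5.78 to 32.2 CPM in cardia and 1.46 to 10.3 CPM in the other tumors. For T and NK cells 3 of 15 members could be tested, and none passed.

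Interferon genes had negative differences, with corpus 1 the highest tumor. All 19 tested members had a negative difference (median -1.40), 3 of them at unadjusted p (Ifit3, Rsad2 and Gbp2). Rsad2, the antiviral enzyme viperin, was at 267 CPM in corpus 1 and 1.66 to 28.2 CPM in the other antrum and corpus tumors, against 1.92 to 26.9 CPM in cardia tumors. The count of 3 became 0 without corpus 1, antrum 2 or lesser curvature 3, 1 without greater curvature 1, greater curvature 3 or lesser curvature 1, 11 without lesser curvature 2 and 16 without greater curvature 2. Without corpus 1 the log2 difference of Rsad2 went from -2.36 to -1.34. The 14 antigen presentation genes were all negative too (median -0.81); none passed, but 4 were lower without greater curvature 2 and 9 without lesser curvature 2. The 12 pit and neck mucous cell genes, a list for the glandular epithelium, were likewise all negative (median -1.30). Of them 1 was lower at unadjusted p (Cym, which encodes the protease chymosin), and 0 to 2 were with 1 library left out. Their summed level ran from 144 to 70333 CPM with a median of 9618 in cardia tumors and from 1238 to 95670.3 CPM with a median of 43507 in the others. It was highest in corpus 1 and greater curvature 2 and lowest in lesser curvature 1 and antrum 1, which are also the highest pair and the lowest pair for the summed interferon list, and its part in the interferon values was not tested.

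**Figure D4:**
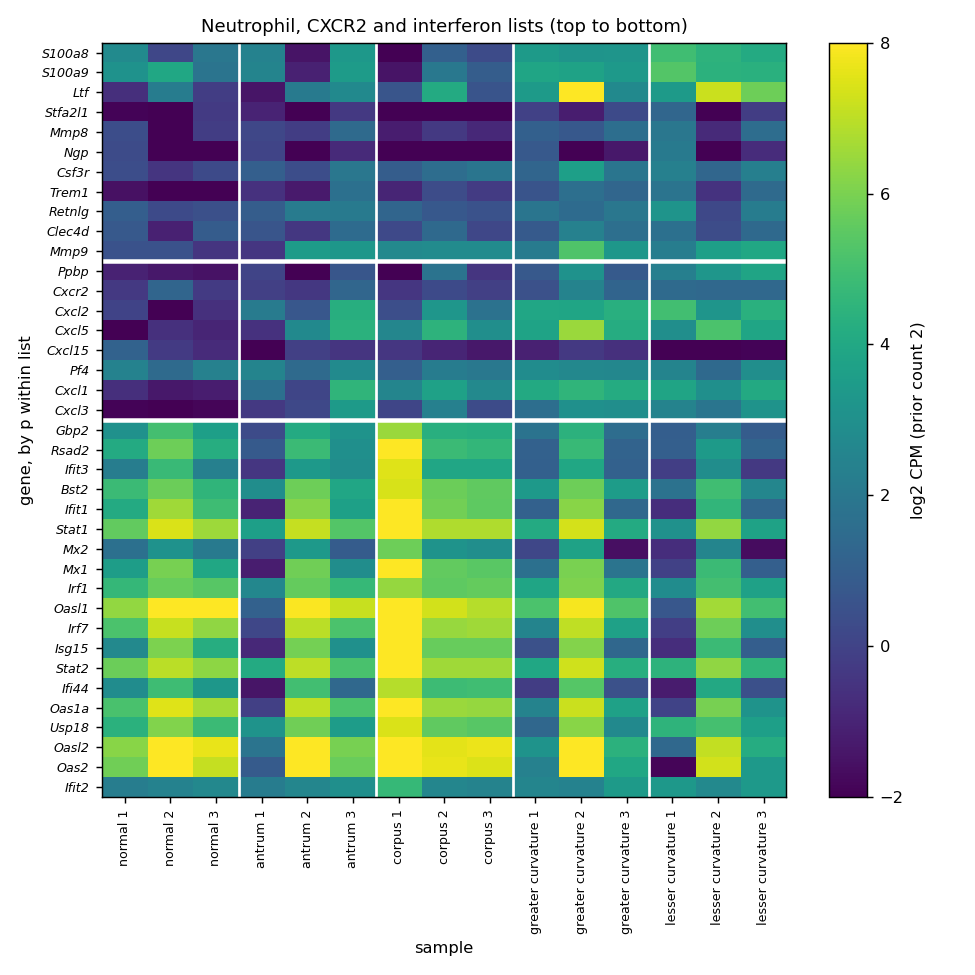
Heatmap of neutrophil, CXCR2 and interferon genes (rows, in blocks; Cxcr2 is drawn once) in the 15 samples (columns, by site), colored by log2 CPM. S100a8 and S100a9 are brighter in the 6 cardia columns and antrum 3, and the interferon block is brightest in corpus 1.

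Gut peptide hormones were lower for 6 of 15 tested members at unadjusted p (Gast, Cck, Pyy, Sct, Iapp and Npy), none was higher, and the median was -1.77. Pyy, the peptide YY of enteroendocrine L cells, was at 0 to 0.382 CPM in the 6 cardia tumors. It was at 0, 7.87 and 8.26 CPM in antrum and 5.53, 1.85 and 0.487 CPM in corpus tumors, so antrum 1 alone overlapped (log2 difference -4.77, SE 1.24, edgeR adjusted p = 0.773, DESeq2 adjusted p = 0.00735). Sct, secretin, was at 0 to 1.57 CPM in cardia and 0.0791 to 11.54 CPM in the other tumors. Without corpus 2 the count was 3, and without antrum 3, lesser curvature 3 or corpus 3 it was 4.

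Neuroendocrine transcription factors split in both directions. Of 20 tested, 3 were higher, among them Hes6 and Lmx1b, and 4 lower, among them Pax6, Fev and Isl1, with a median of 0.72. The higher count became 1 without greater curvature 3, and the lower count 2 without antrum 2, lesser curvature 3 or corpus 2. Neurod1, a proneural factor of endocrine cells, overlapped between the groups (medians 54.0 and 35.8 CPM), as did the secretory markers Chga (735 and 1203 CPM) and Syp (70.6 and 55.6 CPM), and Chga and Syp changed sign when single libraries were left out.

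Of 31 DNA replication, 22 mitosis and 22 ribosome production genes targeted by Myc, none passed even unadjusted, with medians of 0.19, 0.21 and 0.26. The difference was positive for 30 of the DNA replication, 19 of the mitosis and all 22 of the ribosome production genes. Over all genes tested it was positive for 8287 of 16224. Without greater curvature 2, 4 of the DNA replication and 6 of the ribosome production genes were higher at unadjusted p, and without antrum 1 it was 1 of each. The tuft cell markers Dclk1 (log2 difference 0.60, edgeR adjusted p = 0.773) and Pou2f3 (0.33, edgeR adjusted p = 0.897) had medians of 33.3 and 25.7 CPM and of 0.989 and 0.930 CPM in cardia and other tumors. Of 18 tuft genes Dclk1 alone passed unadjusted, a count of 0 to 2 higher and 0 to 2 lower with 1 library left out. The tuft list as a whole had 7 positive and 11 negative differences, with a median of -0.08. Parietal genes were all negative (13 of 13, median -1.09) and 1 passed, Esrrg, and the count was 10 without greater curvature 2, 2 without antrum 3 or lesser curvature 2, and 0 without greater curvature 1, lesser curvature 3, corpus 1 or corpus 3. Smooth muscle, skeletal muscle, fibroblast and endothelial lists had no member past the unadjusted threshold, with medians of -0.07, 0.03, 0.22 and 0.01. With 1 library left out, smooth muscle stayed at 0, skeletal muscle and endothelium reached 1 and fibroblasts 2. The summed parietal list ran from 133 to 5416 CPM in cardia tumors and 255 to 10740.3 CPM in the others, highest in greater curvature 2 and corpus 1, and its part in the other differences was not tested.

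**Figure D5:**
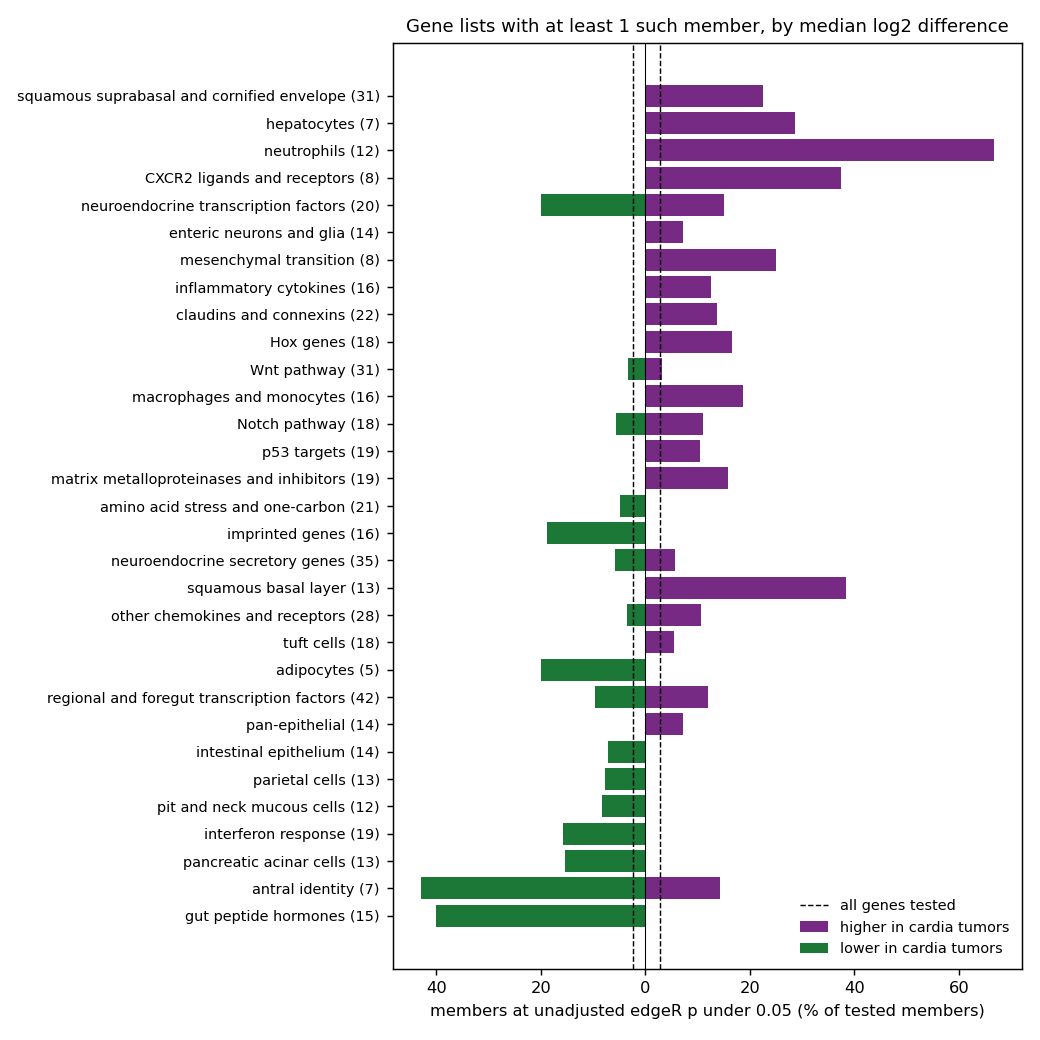
Percent of tested members of a gene list higher (to the right) and lower (to the left) in cardia tumors at an unadjusted edgeR p under 0.05. Lists without any such member are not drawn. Dashed lines mark the percent among all genes tested, 2.72% higher and 2.30% lower. Neutrophils (8 of 12) extend farthest to the right and antral identity (3 of 7) and gut peptide hormones (6 of 15) farthest to the left.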

How the data were processed

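Bulk paired-end RNA-seq of 15 mouse stomach samples (5 groups of 3) was analysed from a gene table of counts and a table of normalized values, both deposited by the authors. Per the submitters' processing notes the tools included bcl2fastq 2.19, kallisto 0.44.0, sleuth and DESeq2, with the genome GRCm38.p6, in roles the notes as used here do not give. The counts deposited by the authors are whole numbers per gene, and nothing used here says whether they were rounded from estimates. The second table, named FPKM, sums to 1000000 in each sample, so its deposited values were treated as TPM, on log2 of the value plus 1. Strand handling is not given, so overlapping and antisense genes cannot be told apart.

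Counts were fitted with edgeR 4.0.16 (R 4.3.3; TMM scaling, filterByExpr with a minimum count of 10, robust quasi-likelihood test, Benjamini-Hochberg adjustment) over all 5 groups, with the contrast of the mean of greater and lesser curvature minus the mean of antrum and corpus tumors. DESeq2 1.42.0, limma 3.58.1 on TPM (at least 1 in 3 samples) and the other alternatives are given at the end. Replicate numbers were taken to pair the greater with the lesser curvature tumors, since their 3 same-numbered correlations of deviations from the group means were all over 0.1 (0.16 to 0.55; the labels do not say what a number shares), but not the 4 sites of the cardia comparison or antrum with corpus. The edgeR script was tested on simulated data whose spread within groups was capped. That test therefore does not show how many true differences would be found in these tumors. Of the site-weighted differences, those of the 127 tested genes with a tumor site at 0 counts have unstable p-values. CPM values use the TMM-scaled library. Floors are 3 counts over the group.

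Per direction, the 12 genes of smallest p whose mean reached 10 CPM in the higher group were named, since none was called; up to 2 members of each of 52 lists with the smallest p, and a set of 15 genes whatever their values, could be named too. Predicted genes, pseudogenes and antibody segments were passed over in the former. Genes outside these rules, including all further list members past the unadjusted threshold, were named after their values were seen. The members and lists were chosen with earlier results of these data known. Coordinates are GENCODE M21 gene models on GRCm38, in which 99.3% of the 36144 symbols were found. Promoters were matched for 126 of 176 named genes. Some genes past the unadjusted threshold are not reported here.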

Additional observations from a re-analysis of the deposited data

Results flagged for a closer look

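Among the 6 cardia and the 6 antrum and corpus tumors, 4 values lay farther from the nearest other tumor than Dixon's 95% limit for 6 samples on log2 CPM allows, in 78 sets of tumors over 39 genes. Chance gives about 1 in 20 such sets. Cxcl5 was at 0.553 CPM in antrum 1, below the other antrum and corpus tumors. Syp was at 5.71 CPM and Neurod1 at 0.56 CPM in greater curvature 2, below the other cardia tumors in both cases. Gast was at 0.0491 CPM in lesser curvature 1, which is its single count in the cardia tumors. The other cardia tumors were all at 0 counts, so 1 count was enough to raise this flag.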

How the results depend on the processing

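The edgeR count of 0 for cardia against antrum and corpus tumors held under DESeq2's size factors, no filter, the replicate block, the 12 tumors only, the test against a 1.5-fold change, the 2-group fit of the 12 tumors and leaving out greater curvature 2 and corpus 1 together; leaving out 1 library gave 0 to 1 calls, the 1 being Rpl34-ps1 without corpus 2. DESeq2 called 87 genes for cardia, 83 for greater against lesser curvature and 77 for antrum against corpus, and limma on TPM called 1 and 5 for the first pair. Antrum against corpus had 0 to 1 calls with 1 library left out. Genes at unadjusted p were 442 higher and 373 lower; DESeq2 gave 791 higher, limma 832 and 149, the 1.5-fold test 223 and 122, and the 2-group fit 211 lower. Leaving out greater curvature 2 and corpus 1 together gave 703 lower. Leaving out 1 library gave 298 to 912 higher and 196 to 1637 lower, the top of both without greater curvature 2. DESeq2's size factors gave 519 and 288, so 64.3% rather than 54.2% were higher, and the 12 tumors alone gave 536 and 268 (66.7%); the TPM scale put the median of all genes at 0.17. With the replicate number as a block, 874 genes were lower for cardia and greater against lesser curvature had 1 call. Over all sites, correlations of same-numbered samples ran from -0.57 to 0.69 in 18 pairs, 9 of them over 0.1. All 3 were over 0.1 for greater with lesser curvature and for antrum with lesser curvature (0.39 to 0.66), and all 3 were negative for antrum with corpus (-0.57 to -0.30).

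Of the named genes' log2 differences, 21 alternatives changed sign. Syp was -0.064 with the replicate block and ran from -0.14 to 0.38 with 1 library left out, negative without antrum 2, greater curvature 1, lesser curvature 1 or corpus 1. Sox2 was -0.24 with the replicate block, -0.094 with limma, -0.049 without greater curvature 2 and corpus 1, and -0.46 to 0.34 with 1 library left out, negative without antrum 3, greater curvature 3, lesser curvature 2 or corpus 1. Chga ran from -1.13 to 0.72, positive without antrum 1 or greater curvature 2. Pou2f3 ran from -0.23 to 0.62, negative without greater curvature 2, and was -0.25 without it and corpus 1. Myocd was 0.069 with limma and ran from -0.48 to 0.13, positive without antrum 3. Hbb-bs was 0.12 with limma and ran from -0.32 to 0.10, positive without corpus 2, and Cpb1 was 0.30 in the 2-group fit. The cause was not tested in any of these. In 39 alternatives a named gene passed, 38 with DESeq2 and Sprr2h with limma. With 3 samples a site, a median SE of 0.289 on the log2 scale limits what the comparison can show.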

Other observations

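Several further gene lists held members at unadjusted p in the cardia comparison, none of which passed edgeR's adjusted threshold. Over all genes tested, 2.72% were higher and 2.30% lower at unadjusted p. A few members of a list can thus pass when nothing differs. Of 19 matrix metalloproteinases and inhibitors, 3 were higher (Mmp7, Mmp8 and Mmp13) and none lower. Mmp13, a collagenase, had a log2 difference of 2.29 and was at 591 CPM in greater curvature 2; the difference was 1.25 without that library and 1.14 without it and corpus 1. The metalloproteinase count was 0 without both and 1 without antrum 1, lesser curvature 3, corpus 1 or corpus 3. Of 22 claudins and connexins, 3 were higher (Cldn3, Cldn6 and Cldn9) and none lower, with a median of 0.44, and the count ran from 1 (without antrum 3, greater curvature 1 or lesser curvature 3) to 5 (without corpus 2). Of 8 mesenchymal transition genes, 2 were higher (Cdh2 and Twist1), and of 18 Notch pathway genes Notch3, a receptor, and Dll3, a ligand of neuroendocrine cells, were higher and Dlk1 lower. With 1 library left out, the higher counts of the mesenchymal and Notch lists each ran from 1 to 3. The log2 difference of Twist1 was 0.90 without greater curvature 2, and that of Dll3 was 0.72 without greater curvature 3.

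Of 13 pancreatic acinar genes, 2 were lower (Cela3b and Prss2), with a median of -1.48, and the count ran from 1 (without greater curvature 3, lesser curvature 1, lesser curvature 3 or corpus 1) to 9 (without lesser curvature 2). Of 19 p53 targets, 2 were higher (Zmat3 and Eda2r), a count of 1 to 5 with 1 library left out and 5 without greater curvature 2. The 7 hepatocyte genes included 2 that were higher, Fga and Fgg, which encode fibrinogen chains, a count of 0 (without greater curvature 1) to 3. Of 35 neuroendocrine secretory genes, 2 were higher (Syt1 and Dll3) and 2 lower (Pcsk2 and Scg2), with a median of 0.02. Without greater curvature 3 the higher count was 0, and the log2 difference of Syt1 went from 2.24 to 0.11.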
